A study of Mus musculus with 6 samples.

Results

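The insulin-like growth factor (IGF) system was measured through 9 genes: the ligand gene Igf1, the receptor genes Igf1r and Igf2r, and the binding protein genes Igfbp2, Igfbp3, Igfbp4, Igfbp5, Igfbp6 and Igfbp7. They were taken by name from the deposited expression table, where all 9 of the 9 were found among 18303 genes. All 9 had a mean of at least 1 RPKM (reads per kilobase of transcript, scaled to library size) and so entered the tests, as did 11939 genes in all. Every library came from mouse embryonic fibroblasts, connective tissue cells of a mid-gestation embryo, of the strain CBA/CaJ X C57BL/6J, on day 2 of reprogramming in the defined medium iCD1. The fibroblasts carried a short hairpin RNA in every group. In shEtnk1/2 it was directed at the ethanolamine kinases, in shPcyt2 at Pcyt2, the enzyme that follows them in the CDP-ethanolamine (CDP-Etn) pathway, and in shPebp1 at phosphatidylethanolamine-binding protein 1. The Etn-deprived group carried the control hairpin shLuc in iCD1 lacking ethanolamine (Etn), and the shLuc group carried it in complete iCD1. The first 4 groups held 1 library each and shLuc held 2, so the treated groups could not be checked against replicates. Because the labels do not state whether the shLuc pair came from separate cultures, p covers only the spread of these samples, which may be technical. The shPebp1 library lacking Etn that the series text mentions was not analysed here.

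IGF1 and IGF2 are small secreted hormones related to insulin that act on the tyrosine kinase IGF1R, which passes the signal to insulin receptor substrates, PI3K and AKT. IGF2R, also the cation-independent mannose 6-phosphate receptor, carries IGF2 to lysosomes and sends no growth signal of the kinase type. The IGF-binding proteins hold IGFs in the fluid around cells with high affinity, and release them when proteases cut the binding protein; embryonic fibroblasts secrete several of them. IGFBP7 binds IGFs weakly and is best known as a protein of the extracellular matrix.

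Reads in genes numbered from 18467583 to 20020465 per library. Etnk1 stood at 12.5 RPKM in shEtnk1/2, against 21.02 and 21.45 RPKM in shLuc. Etnk2 was too low to judge, at 0.333 RPKM in shEtnk1/2 from 15 reads, against 0.457 and 1.003 RPKM in shLuc. Pcyt2 stood at 29.9 RPKM in shPcyt2, against 42.03 and 40.05 RPKM in shLuc. The other treated libraries were also below both shLuc libraries for Pcyt2, at 33.46 to 38.28 RPKM. Pebp1 stood at 99.6 RPKM in shPebp1, against 250.4 RPKM in shLuc replicate 1 and 100.7 RPKM in the library labelled shLuc replicate 2, and at 210.5 to 263.4 RPKM in the other libraries. The low Pebp1 of that library goes against its label, so called differences from shLuc were also taken without it. The 10 fibroblast markers were all present, with a summed level of 12593 RPKM in shEtnk1/2, 9295 to 10659 RPKM in the other treated libraries, and 9980 and 10004 RPKM in shLuc. Markers of other cells were mixed. The macrophage and endothelial genes Ptprc, Fcgr1, Pecam1 and Cdh5 did not pass 0.193 RPKM in any library, but other markers were clearly present. The macrophage marker Lyz2 stood at 52.5 RPKM in shEtnk1/2 and at 38.4 to 42.8 RPKM elsewhere, the endothelial marker Tek at 20.7 to 24.6 RPKM, the neural marker Stmn2 at 33.5 to 53.8 RPKM and the cartilage marker Col2a1 at 16.2 to 19.9 RPKM over the 6 libraries. In such bulk RNA, fewer cells of a type and less RNA per cell cannot be told apart.

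The sequences before the transcription starts of the genes that the results turn on are shown first. They come from RefSeq (GRCm38.p6), which held a window for 9 of the 9 genes, and they comprise the 250 bases before the start, 5′ to 3′ on the gene's strand. Capitals mark the GC box GGGCGG, the letters recognised by Sp1-type factors, or the TATA box TATAAA, each searched on both strands; these motifs cannot overlap each other. Igfbp2 lies at chr1:72824230-72824479 (plus strand), Igfbp7 at chr5:77408046-77408295 (minus strand) and Igfbp6 at chr15:102143936-102144185 (plus strand).
Igfbp2: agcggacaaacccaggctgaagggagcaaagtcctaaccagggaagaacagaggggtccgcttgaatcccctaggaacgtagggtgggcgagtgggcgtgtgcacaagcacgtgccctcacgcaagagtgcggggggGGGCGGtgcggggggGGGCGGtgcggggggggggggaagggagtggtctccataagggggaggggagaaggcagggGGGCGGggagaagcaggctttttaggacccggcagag
Igfbp7: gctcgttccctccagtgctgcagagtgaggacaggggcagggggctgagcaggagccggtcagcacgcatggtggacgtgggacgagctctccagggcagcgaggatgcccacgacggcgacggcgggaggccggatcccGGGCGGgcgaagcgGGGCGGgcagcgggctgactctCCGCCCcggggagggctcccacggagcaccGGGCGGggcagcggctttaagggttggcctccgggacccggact
Igfbp6: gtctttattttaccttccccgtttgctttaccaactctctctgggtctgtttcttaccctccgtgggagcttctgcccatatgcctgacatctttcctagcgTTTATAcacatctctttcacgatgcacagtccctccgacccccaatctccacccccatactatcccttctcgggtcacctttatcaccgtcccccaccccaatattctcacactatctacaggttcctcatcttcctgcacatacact
The Igfbp2 window held 3 GC boxes and the Igfbp7 window 4, with no TATA box in either. The Igfbp6 window held no GC box and 1 TATA box, which was on the opposite strand and not close to the start. Among the 9 genes, 4 had a GC box (Igf1r, Igf2r, Igfbp2 and Igfbp7), beside 32.7% of 32851 mouse windows of the same length. A TATA box stood in 2, Igfbp4 and Igfbp6, beside 12.4% of all windows. A match is a run of letters and not a measured site.

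In shLuc fibroblasts the 3 most abundant of the 9 transcripts encoded binding proteins. On the RPKM scale, which allows for transcript length, Igfbp3, the main IGF carrier of serum, averaged 224.3 ± 26.1 (SD, n = 2). Igfbp4, an inhibitory binding protein that PAPP-A cuts, averaged 148.9 ± 7.92, and Igfbp5, a matrix-binding member, averaged 123.8 ± 15.2. By mean RPKM over the 6 libraries these 3 ranked above 98.9%, 98.2% and 97.5% of the genes in the table.

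Igf2r followed at 89.2 ± 0.766 RPKM, then Igfbp2, which carries an integrin-binding motif, at 64.6 ± 8.63 RPKM and Igfbp7 at 59.6 ± 4.97 RPKM (SD, n = 2 shLuc libraries). Igfbp2 and Igfbp7 did not differ beyond their spread: Igfbp7 was the higher in shLuc replicate 1 and Igfbp2 in the library labelled shLuc replicate 2. Igfbp6, which prefers IGF2, averaged 16.5 ± 1.12 RPKM, Igf1r 11.2 ± 0.278 RPKM and Igf1 3.73 ± 0.176 RPKM. The other neighbours in this order kept their places in both shLuc libraries. Igf2, the fetal ligand and not counted among the 9, averaged 433.0 ± 40.7 RPKM in shLuc. Igfbp1, the liver-type binding protein that neighbours Igfbp3, gave 1 read in shPebp1 and was listed at 0 in the other 5 libraries.

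**Figure D1:**
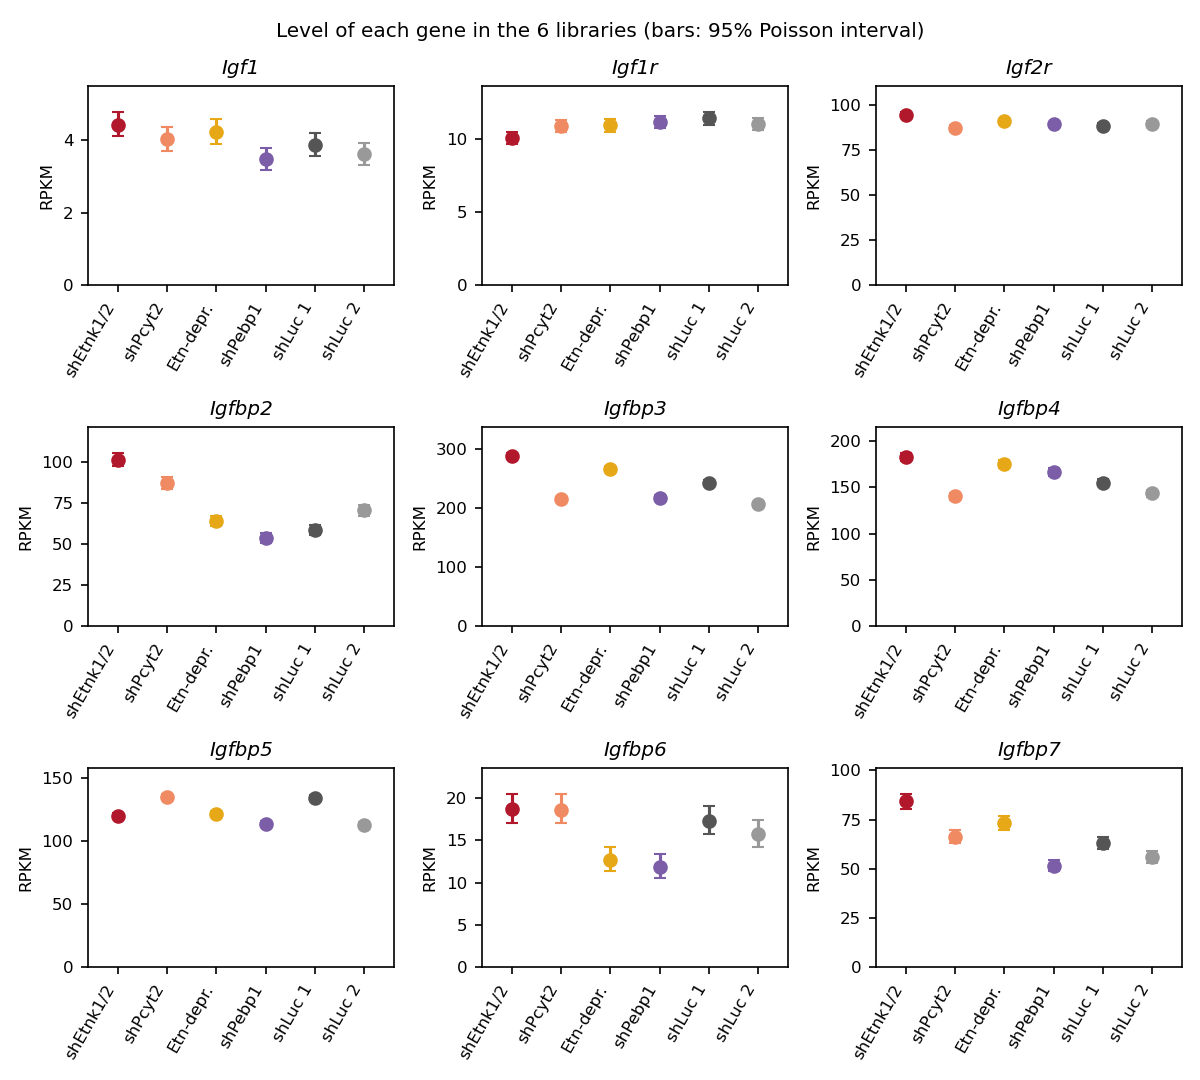
Level of each of the 9 genes in RPKM (vertical axes, from 0) in the 6 libraries (horizontal axes), with 95% Poisson intervals from the recovered reads, which cover counting error only. Igfbp2 and Igfbp7 are highest in shEtnk1/2 and lowest in shPebp1, while Igf2r stays between 87.6 and 94.9 RPKM.

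Igfbp2 and Igfbp7 were highest with knockdown of the ethanolamine kinases. Igfbp2 had 101.6 RPKM in shEtnk1/2, 87.4 in shPcyt2, 64.0 in Etn-deprived and 53.7 in shPebp1, against 58.5 and 70.7 RPKM in shLuc replicate 1 and the library labelled shLuc replicate 2. It was above both shLuc libraries in shEtnk1/2 and shPcyt2, between them in Etn-deprived and below both in shPebp1. Igfbp7 had 84.2 RPKM in shEtnk1/2, 66.3 in shPcyt2, 73.1 in Etn-deprived and 51.6 in shPebp1, against 63.1 and 56.1 RPKM in shLuc. Here all 3 libraries with the pathway inhibited were above both shLuc libraries and shPebp1 was below both.

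In shEtnk1/2, 2 of the 9 genes passed the test of limma on log2(RPKM + 1), Igfbp2 and Igfbp7, both higher; over all genes tested, 3.46% passed in this comparison, 130 higher and 283 lower (138 higher and 102 lower with median-ratio scaling). Igfbp2 rose by 0.65 on that log2 scale (SE 0.12, 95% interval 0.37 to 0.94, limma adjusted p = 0.0458), a 1.57-fold difference. Igfbp7 rose by 0.49 (SE 0.08, 95% interval 0.30 to 0.69, limma adjusted p = 0.0176), a 1.41-fold difference. Both calls take their spread from the shLuc pair. Without the library labelled shLuc replicate 2 the differences were 0.79 for Igfbp2 and 0.41 for Igfbp7. Without shLuc replicate 1 they were 0.52 and 0.58. With a single shLuc library the spread came from shPcyt2 and Etn-deprived, which are unlike treatments. Calls from those fits therefore cannot show whether the results depend on either shLuc library. Neither gene passed when genes with low values were kept in the test. Limma then called 0 genes in this comparison, with 2836 at an unadjusted p under 0.05.

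The shLuc pair itself differed for these genes. Igfbp2 was 0.27 log2 units higher in the library labelled shLuc replicate 2 than in shLuc replicate 1, a larger gap than that of 90.5% of the genes tested, whose median gap was 0.087. The gap was -0.25 for Igfbp5, -0.24 for Igfbp3 and -0.17 for Igfbp7, and its size did not pass 0.13 for the other 5 genes. The summed level of the fibroblast markers was highest in shEtnk1/2, as given above, and was mostly that of Col1a1, Col1a2, Col3a1 and Vim. S100a4 was highest in shPcyt2, at 85.25 RPKM, and stood at 75.56 RPKM in shEtnk1/2. The summed level of 11 epithelial markers, 8 of them at 1 RPKM or more, was lowest in shEtnk1/2. It was 21.5 RPKM, against 33.6 and 34.2 RPKM in shLuc. Of those 8, Krt14 was above both shLuc libraries in shEtnk1/2 and Krt8 between them, while the others were below both. The 8 neural and glial markers summed to 55.8 RPKM in shEtnk1/2, against 76.3 and 84.0 RPKM in shLuc. Of these, Gfap, at under 1 RPKM, was above both shLuc libraries and Sox10 between them, while the others were below both. In shEtnk1/2, 12 macrophage markers summed to 67.5 RPKM, against 54.2 and 56.7 RPKM in shLuc. Most of that sum was Lyz2, at 52.53 RPKM in shEtnk1/2, against 40.21 and 42.55 RPKM in shLuc. Among the rest, Cd68, C1qb and Mrc1 were above both shLuc libraries, C1qb and Mrc1 at under 1 RPKM. Cd14, Csf1r, C1qa, Ptprc, Emr1, Itgam, Fcgr1 and Tyrobp were not. The part of such shifts in the Igfbp2 and Igfbp7 values was not tested.

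Igfbp3 and Igfbp4 were also highest in shEtnk1/2 but did not pass. Igfbp3 had 288.1 RPKM in shEtnk1/2, 214.6 in shPcyt2, 265.7 in Etn-deprived and 217.2 in shPebp1, against 242.7 and 205.9 RPKM in shLuc. Igfbp4 had 182.6 RPKM in shEtnk1/2, 140.2 in shPcyt2, 174.7 in Etn-deprived and 166.3 in shPebp1, against 154.5 and 143.3 RPKM in shLuc. Both were above the shLuc pair in shEtnk1/2 and Etn-deprived, and Igfbp4 also in shPebp1, while neither was in shPcyt2. The shEtnk1/2 difference was 0.29 for Igfbp4 (SE 0.07, limma adjusted p = 0.0513) and 0.36 for Igfbp3 (SE 0.10, limma adjusted p = 0.131). Igfbp5 had 120.3 RPKM in shEtnk1/2, 135.3 in shPcyt2, 122.0 in Etn-deprived and 113.8 in shPebp1, against 134.5 and 113.1 RPKM in shLuc. Every treated library but shPcyt2, itself only just higher, lay within the range of the shLuc pair.

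The order of the libraries thus differed between neighbouring genes. Igfbp2 (chr1:72824480-72852471, plus strand) and Igfbp5 (chr1:72858065-72874865, minus strand) stand 5593 bases apart in mm10, tail to tail. The ratio of their RPKM values was 0.845 in shEtnk1/2, 0.646 in shPcyt2, 0.524 in Etn-deprived and 0.472 in shPebp1, against 0.435 and 0.625 in shLuc. The ratio was above the shLuc range in shEtnk1/2 and, only just, in shPcyt2. It was not tested, and it cannot show which gene moved.

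Igfbp6 (chr15:102144186-102149512, plus strand) had the same order of treated libraries as Igfbp2. They differed around the shLuc pair in Etn-deprived, where Igfbp2 was between the shLuc libraries and Igfbp6 below both. Igfbp6 had 18.7 RPKM in shEtnk1/2, 18.6 in shPcyt2, 12.7 in Etn-deprived and 11.9 in shPebp1, against 17.3 and 15.7 RPKM in shLuc, from 285 to 476 reads per library. The Etn-deprived and shPebp1 libraries were below both shLuc libraries, and both knockdowns of the pathway enzymes were above both. Against shLuc none of these passed: the difference was -0.35 in Etn-deprived (SE 0.10, limma adjusted p = 0.0893) and -0.44 in shPebp1 (SE 0.10, limma adjusted p = 0.323).

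**Figure D2:**
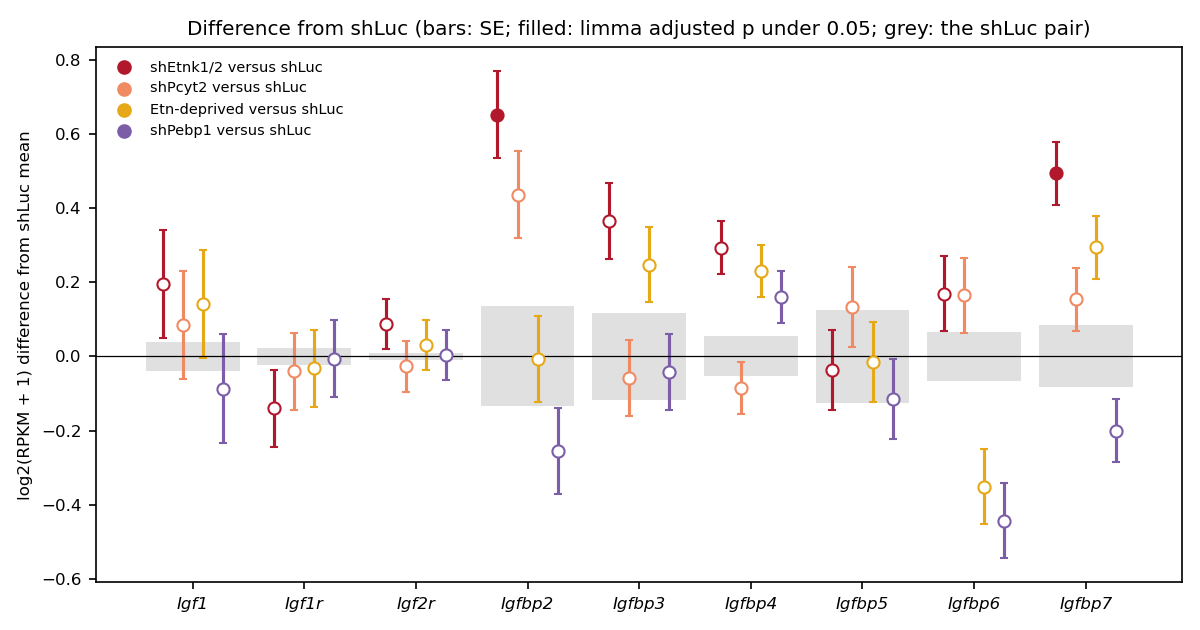
Difference of each treated library from the shLuc mean on the log2(RPKM + 1) scale (vertical axis) for the 9 genes (horizontal axis), with SE bars and filled points where limma adjusted p was under 0.05. The grey band spans the shLuc pair, and the filled points are Igfbp2 at 0.65 and Igfbp7 at 0.49, both in shEtnk1/2.

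The receptors varied least of the 9 genes. Igf2r had 94.9 RPKM in shEtnk1/2, 87.6 in shPcyt2, 91.1 in Etn-deprived and 89.4 in shPebp1, against 88.7 and 89.8 RPKM in shLuc. Igf1r had 10.1 RPKM in shEtnk1/2, 10.9 in shPcyt2, 10.9 in Etn-deprived and 11.1 in shPebp1, against 11.38 and 10.99 RPKM in shLuc. The spread over the 6 libraries was 0.115 log2 units for Igf2r and 0.163 for Igf1r, beside 0.907 for Igfbp2. The shEtnk1/2 difference was 0.09 for Igf2r (95% interval -0.06 to 0.24, limma adjusted p = 0.528) and -0.14 for Igf1r (95% interval -0.37 to 0.09, limma adjusted p = 0.513). Changes of any size within those intervals remain possible. The RPKM ratio of Igf2r to Igf1r was 9.44 in shEtnk1/2 and 8.04 to 8.35 in the other treated libraries, against 7.79 and 8.17 in shLuc. Insr, the insulin receptor, had 7.59 RPKM in shEtnk1/2 and 8.26 to 8.93 RPKM in the other treated libraries, against 8.49 and 8.55 RPKM in shLuc.

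Igf1 had 4.42 RPKM in shEtnk1/2, 4.02 in shPcyt2, 4.22 in Etn-deprived and 3.46 in shPebp1, against 3.86 and 3.61 RPKM in shLuc. The 3 libraries with the pathway inhibited were above both shLuc libraries, by differences that did not pass (0.19 in shEtnk1/2, SE 0.15, limma adjusted p = 0.516). Igf2, its sister ligand, had 632.1 RPKM in shEtnk1/2, 531.1 in shPcyt2, 500.6 in Etn-deprived and 360.4 in shPebp1, against 404.2 and 461.8 RPKM in shLuc. Igf2 thus had the same split of libraries around the shLuc pair as Igf1 and Igfbp7, and it rose by 0.55 log2 units in shEtnk1/2 (SE 0.08, limma adjusted p = 0.0183).

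In the other single comparisons none of the 9 genes passed. In shPcyt2, 0.109% of all genes passed. An unadjusted limma p under 0.05 was found for 713 of all 11939 genes and 1 of the 9. Limma-voom on the recovered reads called 37 of all genes and 1 of the 9, Igfbp2. Its difference in shPcyt2 was 0.44 (SE 0.12, 95% interval 0.15 to 0.72, limma adjusted p = 0.716). In Etn-deprived, 3.8% of all genes passed. The unadjusted limma p was under 0.05 there for 2375 of all genes and 3 of the 9 (Igfbp4, Igfbp6 and Igfbp7). Limma-voom called 700 of all genes and 3 of the 9 (Igfbp3, Igfbp4 and Igfbp7). Igfbp7 differed there by 0.29 (SE 0.08, limma adjusted p = 0.0955) and Igfbp4 by 0.23 (SE 0.07, limma adjusted p = 0.108). In shPebp1, 0.101% of all genes passed. An unadjusted limma p under 0.05 was found for 698 of all genes and 3 of the 9 (Igfbp4, Igfbp6 and Igfbp7). Limma-voom called 13 of all genes and 0 of the 9. With so few genes called anywhere in shPcyt2 and shPebp1, a count of 0 among 9 is near the background.

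Taken as 1 group of 3 libraries against shLuc, inhibition of the pathway gave no call among the 9 genes by limma and 0% over all genes. The unadjusted limma p was under 0.05 for 1 of the 9 and 724 of all genes, and limma-voom called 0 of either. A permutation of 3 against 2 libraries cannot go below 0.1. Igfbp7 differed by 0.31 (limma adjusted p = 0.812) and Igfbp2 by 0.36 (limma adjusted p = 0.817). Without a test, all 3 pathway libraries were above both shLuc libraries for 2 of the 9 genes, Igf1 and Igfbp7, beside 7.82% of all genes, and below both for 1, Igf1r, beside 15.9% of all genes.

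The 9 genes were chosen with earlier results of these data known, so their values as a set are descriptive and no test. As a set the 9 genes lay mostly above shLuc in shEtnk1/2, where more genes lay below than above on the deposited scale. In that library 7 of the 9 were above both shLuc libraries and 1 below both, beside 25% and 51.9% of all genes tested. The median difference of the 9 from the shLuc mean was 0.19 in shEtnk1/2, beside -0.06 over all genes tested; with median-ratio scaling, which centres the libraries, it was 0.25 beside -0.0007. On the deposited scale it was 0.08 in shPcyt2, 0.03 in Etn-deprived and -0.09 in shPebp1, beside -0.02, -0.01 and 0.01 over all genes. In shPebp1, 1 of the 9 was above both shLuc libraries (Igfbp4) and 4 were below both (Igf1, Igfbp2, Igfbp6 and Igfbp7), beside 36.6% and 31.7% of all genes.

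The summed level of the 6 binding protein genes was 795.4 RPKM in shEtnk1/2, 662.4 in shPcyt2, 712.2 in Etn-deprived and 614.6 in shPebp1, against 670.6 and 604.7 RPKM in shLuc. The sums in shEtnk1/2 and Etn-deprived were above both shLuc libraries, and those in shPcyt2 and shPebp1 fell between them. Igfbp3 made up 32.4% to 37.3% of the sum in the 6 libraries. The share of Igfbp2 was 12.8% in shEtnk1/2, 13.2% in shPcyt2, 9.0% in Etn-deprived and 8.7% in shPebp1, against 8.7% and 11.7% in shLuc.

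**Figure D3:**
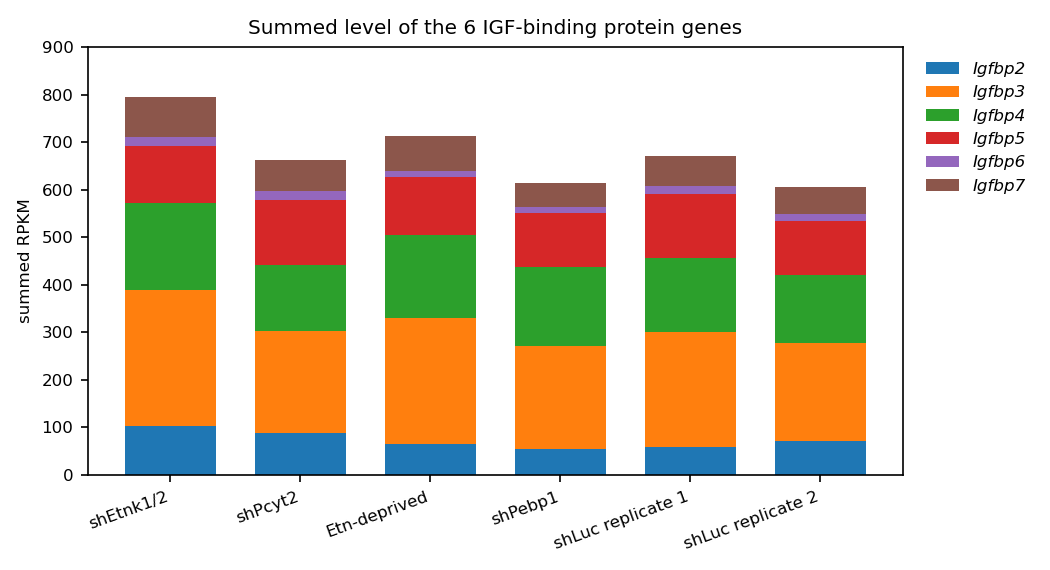
Summed RPKM of the 6 IGF-binding protein genes (vertical axis, from 0) in each library (horizontal axis), stacked by gene. The tallest bar is shEtnk1/2 at 795.4 RPKM, and Igfbp3 with Igfbp4 fill the larger share of every bar.

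The treated libraries were also set against each other, in 6 pairs and 54 tests of the 9 genes, with the spread again from the shLuc pair and 1 library on each side, so that without either shLuc library these tests have no residual spread. In all, 5 differences passed the limma test. Between shEtnk1/2 and shPebp1, where 2.72% of all genes passed, Igfbp2 differed by 0.91 (SE 0.13, limma adjusted p = 0.0307), Igfbp7 by 0.70 (SE 0.10, limma adjusted p = 0.00755) and Igfbp6 by 0.61 (SE 0.12, limma adjusted p = 0.0246), each higher in shEtnk1/2. Between shPcyt2 and Etn-deprived, where 3.22% passed, Igfbp6 was higher in shPcyt2 by 0.52 (SE 0.12, limma adjusted p = 0.0437). Between Etn-deprived and shPebp1, where 1.22% passed, Igfbp7 was higher in Etn-deprived by 0.49 (SE 0.10, limma adjusted p = 0.0482). All 5 calls were lost with no filter on low values, and 3 of them in other settings too. Igfbp6 between shPcyt2 and Etn-deprived did not pass with median-ratio scaling (limma adjusted p = 0.0595) or limma-voom (adjusted p = 0.0687), and with GC content and length trends removed it differed by 0.29 (limma adjusted p = 0.449). Igfbp7 between Etn-deprived and shPebp1 did not pass with median-ratio scaling (limma adjusted p = 0.0753) or with those trends removed (limma adjusted p = 0.167), and Igfbp6 between shEtnk1/2 and shPebp1 did not pass with them removed (limma adjusted p = 0.0603).

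The remaining pairs gave no call among the 9 genes by limma, with 0.921% of all genes called between shEtnk1/2 and shPcyt2, 0.854% between shEtnk1/2 and Etn-deprived and 0.168% between shPcyt2 and shPebp1. The unadjusted limma p was under 0.05 for 3, 2 and 4 of the 9 in these pairs, beside 1538, 1722 and 1200 of all genes. Limma-voom called 2, 1 and 1 of the 9, beside 253, 366 and 113 of all genes. Igfbp2 differed by 0.66 between shEtnk1/2 and Etn-deprived (95% interval 0.33 to 0.99, limma adjusted p = 0.113) and by 0.22 between shEtnk1/2 and shPcyt2 (95% interval -0.11 to 0.55, limma adjusted p = 0.587).

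Other genes of the system were read from lists of 97 genes, of which 90 were in the table and 80 were tested. These lists were chosen with earlier results of these data known, so counts within them are descriptive. In shEtnk1/2, 5 of the 80 rose and 1 fell; in Etn-deprived, 2 rose and 2 fell; and in shPcyt2 and shPebp1 limma called 0. The shares called over all genes were 3.46% in shEtnk1/2 and 3.8% in Etn-deprived, so the Etn-deprived count is near the background. Of 14 proteases of the binding proteins and their regulators, 3 rose in shEtnk1/2 and their median difference was 0.20, beside -0.06 over all genes. Htra1, a secreted serine protease with a binding-protein-like domain, had 143.8 RPKM in shEtnk1/2, against 87.6 and 102.9 RPKM in shLuc (difference 0.59, limma adjusted p = 0.0267). Plat, tissue plasminogen activator, had 61.8 RPKM in shEtnk1/2, against 39.6 and 46.6 RPKM in shLuc (difference 0.52, limma adjusted p = 0.039). The other was Adam12, a membrane metalloprotease that cuts IGFBP3 and IGFBP5, with 28.0 RPKM in shEtnk1/2, against 18.5 and 21.4 RPKM in shLuc (limma adjusted p = 0.0422). Pappa, which encodes the protease of IGFBP4, had 4.24 RPKM in shEtnk1/2, against 3.30 and 3.04 RPKM in shLuc, and did not pass.

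Among 9 tested proteins that carry an IGFBP-type domain, 2 rose in shEtnk1/2, Htra1 again and Wisp1, a matricellular protein, with 33.9 RPKM in shEtnk1/2, against 22.4 and 26.1 RPKM in shLuc (limma adjusted p = 0.043). Of 14 receptors, adaptors and feedback genes, Irs4, an insulin receptor substrate, was the 1 that fell, with 5.44 RPKM in shEtnk1/2, against 7.99 and 8.80 RPKM in shLuc (limma adjusted p = 0.0377). None of the 24 PI3K, AKT and mTOR genes, the 10 genes of mannose 6-phosphate sorting or the 3 Igf2 mRNA-binding proteins passed in shEtnk1/2.

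In Etn-deprived, the calls included a gene downstream of the receptors. Eif4ebp1, the translation repressor that mTOR phosphorylates, had 31.5 RPKM in Etn-deprived, against 40.3 and 43.7 RPKM in shLuc, and fell by 0.40 (limma adjusted p = 0.0268). It was the 1 called of the 24 PI3K, AKT and mTOR genes. Gnptg, a subunit of the enzyme that makes the mannose 6-phosphate tag read by IGF2R, was the 1 called of 10 sorting genes, with 15.6 RPKM in Etn-deprived, against 22.5 and 23.6 RPKM in shLuc (limma adjusted p = 0.0117). Jak2 and Socs3, a kinase and a feedback inhibitor of cytokine and growth hormone receptors, also rose, Jak2 to 20.3 RPKM in Etn-deprived, against 14.9 and 15.4 RPKM in shLuc, and Socs3 to 29.8 RPKM, against 23.1 and 22.4 RPKM in shLuc. All 10 genes called in these lists kept their direction without either shLuc library. Calls from those fits were not used, since the spread then came from unlike treatments. Without the library labelled shLuc replicate 2, Igf2 differed by 0.64 in shEtnk1/2 and Gnptg by -0.50 in Etn-deprived.

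Transcript length and GC content moved with the Etn-deprived values. Over all genes, the median difference in Etn-deprived was 0.12 for GC content under 45% and -0.13 for 55% and over. Igfbp6 (1289 nt, 60.7% GC), Igfbp2 (1327 nt, 62.1% GC) and Igfbp7 (1213 nt, 58.8% GC) are short and rich in GC beside medians of 2905 nt and 50.2%. With the trends of GC content and length removed, an alternative chosen after the data were seen, the Etn-deprived difference of Igfbp6 was -0.16, beside -0.35, and that of Igfbp7 was 0.49, beside 0.29. For shEtnk1/2 the same step gave 0.77 for Igfbp2, which was then not called (limma adjusted p = 0.0574), and 0.61 for Igfbp7, which was.

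**Figure D4:**
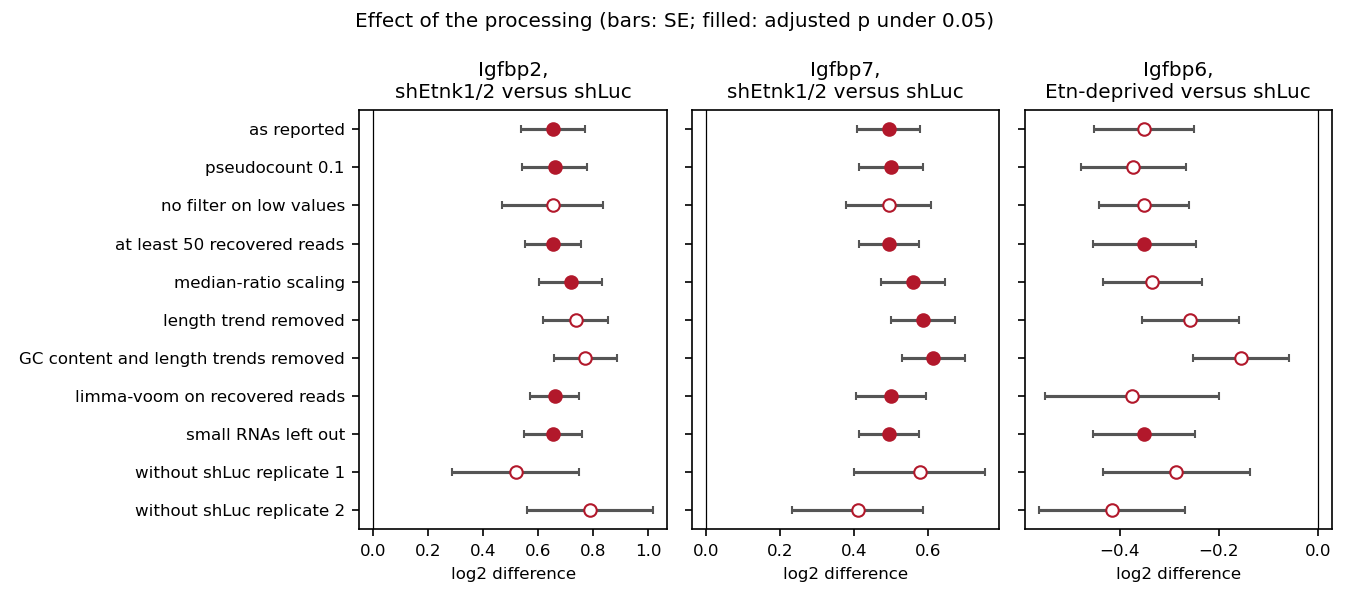
Difference from shLuc (horizontal axes, log2 scale, SE bars) of Igfbp2 and Igfbp7 in shEtnk1/2 and of Igfbp6 in Etn-deprived as reported and under 10 other settings (vertical axis), filled where limma adjusted p was under 0.05. Signs stay the same throughout, and removing the GC and length trends brings Igfbp6 to -0.16. Without either shLuc library the spread comes from unlike treatments, so the open points there do not test the calls.

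Reads of some of these genes may include those of overlapping genes, since the strand setting is not given in the sources used here. In the GENCODE annotation of mm10, Igfbp7 (chr5:77349240-77408045, minus strand) overlaps the end of Polr2b and the antisense gene Gm34648, and Igf1 (chr10:87859056-87937047, plus strand) overlaps Igf1os. In the deposited table Igf2r (chr17:12682406-12740406, minus strand) stops on its 5′ side short of its antisense neighbour Airn. In RefSeq, Igf2r runs on to base 12769706 and overlaps Airn, which spans bases 12741311 to 12859884. Whether reads of Airn were counted for Igf2r was not tested.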

How the data were processed

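Poly(A) RNA was sequenced in 6 libraries. Per the labels' protocols, poly(A) RNA was selected, copied to cDNA, ligated to indexed adapters, amplified and read as paired ends. The authors deposited 1 RPKM value per gene and library; per the submitters' processing notes, the tool was Bowtie 0.12.2 and the build mm10. In the sources used here, the counter, gene models and strand setting were not given. Both members and lists were chosen with earlier results of these data known.

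The deposited RPKM was put on the scale log2(RPKM + 1), on which fold changes of low genes come out too small. The 11939 genes whose mean reached 1 RPKM were tested with limma 3.58.1 in R 4.3.3 (trended, robust empirical Bayes; 5 group means), two-sided, with Benjamini-Hochberg adjustment over all genes and a threshold of 0.05. Each treated group held 1 library, and the shLuc pair alone gave the spread (1 residual degree of freedom, prior 9.24), on the assumption that the treated groups vary to the same extent. The 3 pathway libraries were also fitted as 1 group (3 residual degrees of freedom, prior 6.37). The script was tested on simulated data.

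RPKM ratios between libraries gave whole reads for all 18303 genes (tolerance 1e-05 reads plus a relative 5e-09), 18467583 to 20020465 per library. Poisson intervals on these reads cover counting error only. Alternatives were a pseudocount of 0.1, no filter, a mean of at least 50 reads, median-ratio scaling, limma-voom on recovered reads, removal of length or of GC content and length trends (the joint removal added after seeing the data, with a GC value for 95.5% of tested genes), small RNAs left out, and each pathway or shLuc library left out. Named genes were the 9 members, Igf2, Insr and Igfbp1 beside them, the targeted genes and called genes of the lists. The 3 genes closest in profile to each of Igfbp2, Igfbp6 and Igfbp7, the members that varied most, were also named. A single gene of the lists is not reported here and was left out of their counts.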

Additional observations from a re-analysis of the deposited data

Results flagged for a closer look

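The differences between treatments that passed the limma test are given here because the effects of treatments set against the same shLuc pair differed from each other. Igfbp2 was higher in shEtnk1/2 than in shPebp1 by 0.91 log2 units (SE 0.13), Igfbp6 by 0.61 (SE 0.12) and Igfbp7 by 0.70 (SE 0.10). Igfbp6 was higher in shPcyt2 than in Etn-deprived by 0.52 (SE 0.12), and Igfbp7 was higher in Etn-deprived than in shPebp1 by 0.49 (SE 0.10). With median-ratio scaling or with length, or GC content and length, trends removed, the last 2 did not pass (limma adjusted p 0.0595, 0.189 and 0.449 for Igfbp6, and 0.0753, 0.139 and 0.167 for Igfbp7), and with both trends removed the Igfbp6 difference was 0.29. Each side of these differences was 1 library.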

How the results depend on the processing

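Of 909 gene values under an alternative, 847 kept their side of the threshold, 21 lost a call, 41 gained one and 0 reversed a called value. Of the 847, 48 were uncalled values that changed sign. In shEtnk1/2, 2 genes were called as reported, 0 with no filter on low values, 4 with at least 50 recovered reads, with limma-voom or with small RNAs left out (Igfbp2, Igfbp3, Igfbp4 and Igfbp7), 3 with median-ratio scaling (Igfbp2, Igfbp4 and Igfbp7), 1 with the length trend removed and 1 with GC content and length trends removed (Igfbp7). Leaving out either shLuc library took the spread from unlike treatments, so those fits, though counted among the alternatives, cannot test the calls. In shPcyt2 limma-voom called 1, and 37 over all genes, against 0 and 13 as reported. In Etn-deprived 3 were called with at least 50 reads, with limma-voom or with small RNAs left out, against 0 as reported. Over all genes these settings called 871, 700 and 836 there, against 454 as reported. Between treatments, 5 differences were called as reported, 0 with no filter, 14 with at least 50 reads, 3 with median-ratio scaling, 3 with the length trend removed, 2 with GC content and length trends removed, 13 with limma-voom and 11 with small RNAs left out. The calls over all genes moved the same way in every pair. Between shEtnk1/2 and shPebp1 they numbered 325 as reported, 0 with no filter, 837 with at least 50 reads and 257 with median-ratio scaling. There they numbered 139 and 97 with the length and the joint trends removed, 835 with limma-voom and 777 with small RNAs left out. Between shPcyt2 and Etn-deprived they numbered 385 as reported, 847 with at least 50 reads, 741 with limma-voom and 19 with the joint trends removed. With no filter 18301 genes were tested, against 11939 as reported; the cause of these shifts was not tested.

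The adjusted p of Igfbp2 in shEtnk1/2 ranged from 6.2e-11 to 1 over 10 alternatives, with 5 calls, and that of Igfbp7 from 1.37e-05 to 1, with 7 calls. Over all genes in shEtnk1/2, 413 were called as reported, 0 with no filter, 873 with at least 50 reads, 240 with median-ratio scaling, 128 and 68 with the length and the joint trends removed, 788 with limma-voom, 780 with small RNAs left out, 3 without shLuc replicate 1 and 5 without the library labelled shLuc replicate 2. No paired analysis was possible because each treated group held 1 library and shared fewer than 2 replicate numbers with shLuc. Depth limits Igfbp6 and Igf1 most, and Igfbp1 was too low to test.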

Other observations

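Igfbp2, Igfbp7 and Igfbp6 varied most of the 9 genes over the 6 libraries, by 0.91, 0.70 and 0.61 log2 units. The genes closest to them in profile were found by the root mean square difference of centred log2(RPKM + 1) values. The 1728 candidates were also chosen for a wide spread over the libraries. Closest to Igfbp2 were Myl9, a regulatory light chain of contractile myosin (difference 0.023), Cdh3, P-cadherin (0.061), and Itm2a (0.071). Myl9 had 148.1 RPKM in shEtnk1/2, 128.1 in shPcyt2, 91.5 in Etn-deprived and 81.3 in shPebp1, against 86.2 and 104.5 RPKM in shLuc, so the same libraries were high and low as for Igfbp2.

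Closest to Igfbp7 were Thbs1, the matrix glycoprotein thrombospondin 1 (0.037), Gpc3, a membrane proteoglycan (0.038), and Rab3il1 (0.049). Thbs1 had 460.1 RPKM in shEtnk1/2, 348.9 in shPcyt2, 379.8 in Etn-deprived and 264.9 in shPebp1, against 320.5 and 298.6 RPKM in shLuc. Closest to Igfbp6 were Tmem200b (0.081), the transcription factor Six2 (0.083) and Tnfrsf12a, the TWEAK receptor (0.084), of which Six2 and Tmem200b had means of 1.46 and 2.58 RPKM. These likenesses describe 6 libraries and carry no test.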
